A study of Mus musculus with 51 samples.

Results

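Hepatocytes lacking all 3 FoxA transcription factors (FoxA triple null) were compared with hepatocytes in which FoxA1 and FoxA2 were deleted and FoxA3 was left in place (FoxA1/A2 Cre alfp). The comparison rested on 8 RNA libraries, 4 in each group, of 51 samples in the series. Its members were the 10932 genes, of 33773 gene symbols measured, that reached 1 RPKM in 3 or more of the 8 libraries and were not at 0 in every library of either group. RPKM is a read number divided by gene length and by sequencing depth, so levels can be set side by side between genes. The study asked what adult hepatocytes lose when the whole FoxA family is removed, and also measured RNA in FoxA3 null and FoxA1/A2 lox hepatocytes, which serve here as the pair of groups with Foxa1 and Foxa2 intact.

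The triple null mice carried floxed FoxA1 and FoxA2 (FoxA1 L/L, FoxA2 L/L) and no FoxA3 (FoxA3-/-), and at 8 weeks of age received an AAV8 vector expressing Cre from the Tbg promoter, which is active in hepatocytes. FoxA3 null mice (4 libraries) had the same alleles and received a GFP vector, so they and the triple null shared the absence of FoxA3 and exposure to a vector. FoxA1/A2 Cre alfp is the label of the double deletion, and FoxA1/A2 lox (3 libraries) that of undeleted animals. The labels give no age, sex, vector or deletion time for these latter groups and do not spell out alfp. A Cre transgene of that name is known from other work to act in the fetal liver, and whether it was the one used is not stated in the labels. Any difference between the groups in the route or time of deletion would coincide with FoxA3 status and cannot be told apart from it. Nothing in the labels says that replicates were separate animals, so p-values measure the spread between these libraries.

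FoxA1, FoxA2 and FoxA3 are closely related forkhead DNA-binding proteins that bind the enhancers and promoters of liver genes and can open chromatin for other factors. FoxA1 and FoxA2 are needed for the liver to form, and the family shares many binding sites in hepatocytes with HNF4a, CEBP factors and nuclear receptors. Classic FoxA targets in the liver encode secreted plasma proteins such as transthyretin and apolipoproteins.

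The libraries carried a hepatocyte profile. All 10 hepatocyte defining genes were detected in each of the 8. Their summed level, Ttr included, was 22978 to 30413 RPKM in the triple null and 37479 to 48042 RPKM in Cre alfp. Of 14 cholangiocyte and progenitor markers 11 stayed under 1 RPKM in all 8, among them Krt7, Krt19 and Epcam, which mark bile duct cells. The other 3 reached the level for testing. All 14 summed to 9.02 to 16.7 RPKM in the triple null and 17 to 21.8 RPKM in Cre alfp. Absolute depth was not known. Relative to the shallowest library, depth was 1 to 1.19 in the triple null and 1.24 to 2.03 in Cre alfp, so low levels were less precise in the triple null. All 15 hepatocyte libraries expressed the Y-linked genes Ddx3y, Eif2s3y and Uty. Some genes split the 15 libraries by FoxA3 status. Of 36 genes at 0 in every triple null library, 29 were also at 0 in every FoxA3 null library. Of the 36, 31 were above 0 in at least 1 lox library. Others, such as Gh and Mir1894, were at 0 in all lox libraries too and did not follow FoxA3 status. The highest of the 29, AC113316.1, had 179736 to 463081 RPKM in Cre alfp and 116631 to 246898 RPKM in lox. Whether this split came from FoxA3 or from library preparation cannot be told apart, so the difference between FoxA3 null and lox, which crosses the same split with no library in common, is given beside the main values. Cre alfp replicate 4 and triple null replicate 3 stood apart most often among the named genes, and the counts over all genes are also given without each of them.

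The targeted genes were examined first (the plot of FoxA genes by library). Foxa3 measured 0.00638, 0, 0 and 0.0114 RPKM in triple null replicates 1 to 4 and 34.5, 30.1, 31.9 and 27.7 RPKM in the 4 Cre alfp libraries. Foxa3 was thus absent or nearly absent on the triple null side and expressed in each double deletion library (log2 difference -5.07 ± 0.10 (SE), limma adjusted p = 6.41e-09). Foxa2 was low in both groups, at 0.243, 0.428, 0.323 and 0.47 RPKM in the triple null and 1.12, 1.0, 1.26 and 0.991 RPKM in Cre alfp, against 6.84 to 19.2 RPKM in lox. Foxa1 was at 3.39, 3.63, 3.04 and 3.06 RPKM in the triple null and at 1.31, 1.14, 1.34 and 1.16 RPKM in Cre alfp, against 4.71 to 8.21 RPKM in lox. Residual Foxa1 thus lay above, and residual Foxa2 below, in every triple null library relative to every Cre alfp library. Neither difference reached the minimum size for a call, 0.82 ± 0.10 for Foxa1 (limma adjusted p = 0.000465) and -0.69 ± 0.10 for Foxa2 (limma adjusted p = 0.00123), and both were called with a pseudocount of 0.1 in place of 1, at 1.18 and -1.52. Whether the remaining reads came from undeleted cells or from exons outside the deleted part was not tested. Hnf4a, the nuclear receptor that shares many FoxA sites, was at 145 ± 34.2 RPKM (SD, n = 4) in the triple null and 99.4 ± 12.6 RPKM (SD, n = 4) in Cre alfp, and its difference of 0.35 ± 0.15 did not pass the test (limma adjusted p = 0.0813). The 13 other forkhead genes tested included 2 called lower, Foxq1 (-1.79) and Foxp2 (-1.12). The Foxq1 libraries overlapped, and its call was lost without triple null replicate 1, 2 or 4 or without Cre alfp replicate 1, 2 or 4, with a replicate block and without the filter on low values, with limma adjusted p-values of up to 0.0898 over all alternatives. Foxp2 lost its call under quantile normalization.

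**Figure D1:**
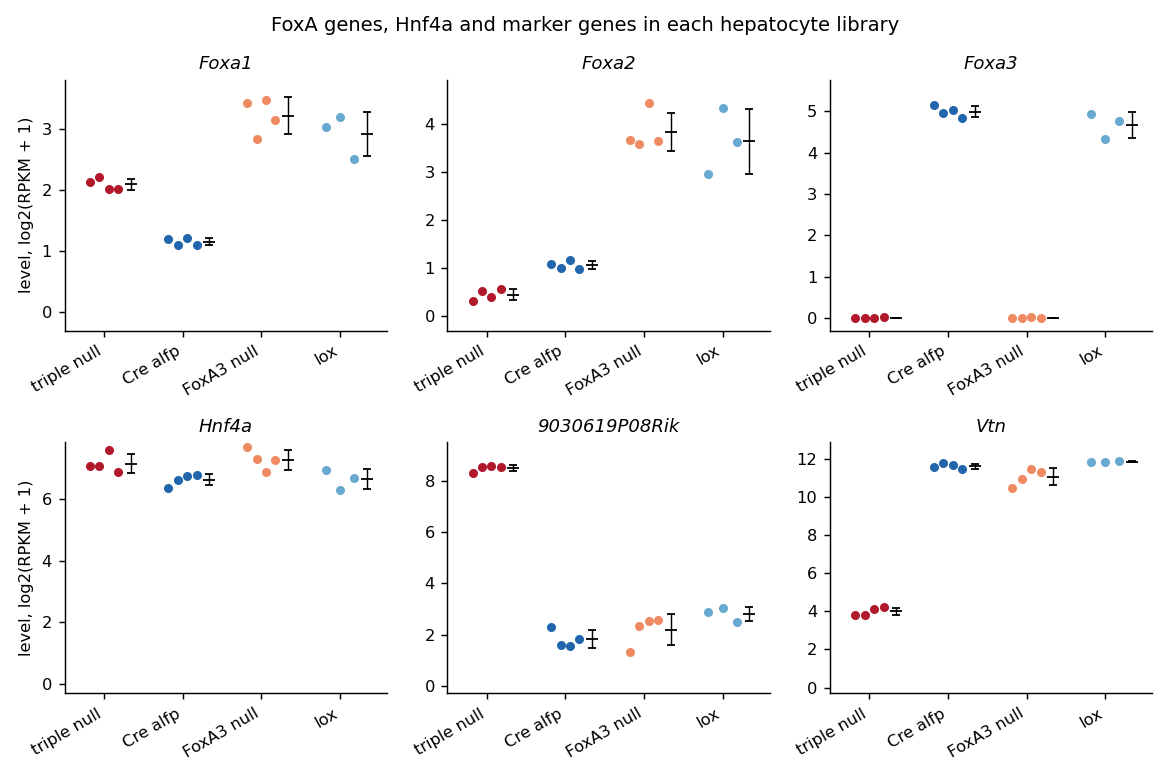
Level of Foxa1, Foxa2, Foxa3, Hnf4a, 9030619P08Rik and Vtn as log2(RPKM + 1) in each of the 15 hepatocyte libraries, 1 point per library, with the group mean and SD beside the points. Foxa3 was near 0 in the triple null and FoxA3 null groups, and 9030619P08Rik was high and Vtn low in the triple null libraries only.

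Between the triple null and the double deletion 1101 of the 10932 genes were called, 414 higher and 687 lower in the triple null. Calls required a limma p under 0.05 after Benjamini-Hochberg adjustment together with a log2 difference of 1 or more in size, so the background share was 10.1 percent called in either direction, 3.79 percent higher and 6.28 percent lower. These shares are the background of all list counts of the main comparison below. Without the minimum difference 4431 of the 10932 genes passed. A low p alone was thus common, also for list members said below to have an unadjusted p under 0.05. Over all genes the median log2 difference came to 0.0018. Without the median scaling it was 0.142 and the split became 601 higher and 548 lower, so directions are given relative to the median gene. Without Cre alfp replicate 4, 479 genes were called higher and 775 lower, and without triple null replicate 3, 386 higher and 601 lower. The authors' deposited table of the same comparison held 844 of the 1101 called genes, and called 753 of these the same way (89.2 percent of the 844, and 64.4 percent of the 1169 calls of that table among genes tested here).

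FoxA3 null against lox, which differ in FoxA3 with Foxa1 and Foxa2 intact, gave 784 called genes (7.17 percent), 269 higher (2.46 percent) and 515 lower (4.71 percent), a split that became 402 higher and 364 lower without the median scaling. Of the 414 genes higher in the triple null, 92 were also called higher there, and of the 687 lower genes 182 were also called lower there. The difference between both differences, each taken with its sign, was then tested in a fit of all 15 libraries. The test asks whether the triple null differs from Cre alfp in another size or direction than FoxA3 null differs from lox. A call can therefore also come from a change between FoxA3 null and lox. This difference of differences, called the excess below, was called for 759 genes (6.94 percent), 348 higher (3.18 percent) and 411 lower (3.76 percent). It was called for 829 without Cre alfp replicate 4 and 861 without triple null replicate 3. Of the 1101 genes, 426 (38.7 percent) were called the same way in the excess, 265 (24.1 percent) were called the same way in FoxA3 null against lox and not in the excess, and the other 410 (37.2 percent) fell in neither class. Within the 426, 9 were also called the same way in FoxA3 null against lox. Of the 265 shared genes 147 (55.5 percent) had no RefSeq protein, against 7.51 percent of the 426 and 11.5 percent of all genes tested. Symbols without a match in RefSeq, such as Gm10736, were also counted as having none. The plot of the main difference against that of FoxA3 null from lox shows both sets.

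**Figure D2:**
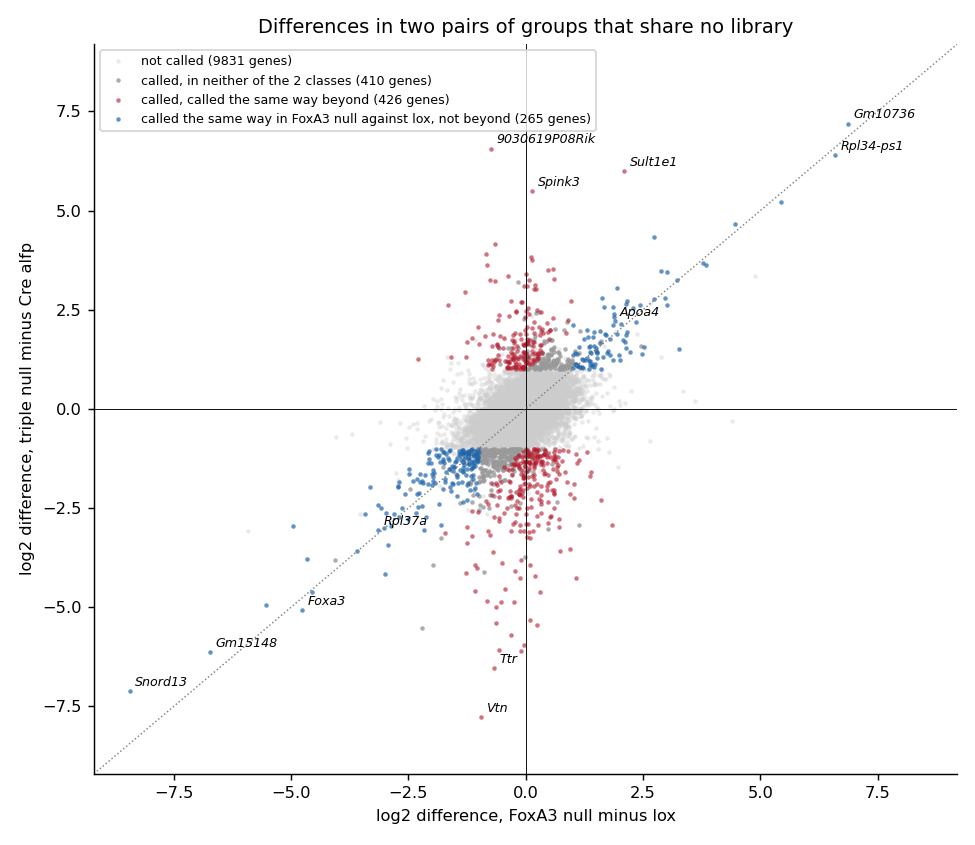
Log2 difference of triple null from Cre alfp (vertical axis) against that of FoxA3 null from lox (horizontal axis) for the 10932 genes, 1 point per gene, coloured by call, with the dotted line marking equal differences. The 426 genes called the same way in the excess (drawn as called the same way beyond) lie away from the dotted line, from Vtn at -7.78 to 9030619P08Rik at 6.56, and the 265 shared genes lie in the lower left and upper right, at 1 or more in size on both axes as the calls require.

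Among protein genes called in the excess, vitronectin, transthyretin and other products of mature hepatocytes were lowest relative to the double deletion. Vtn, which encodes the adhesion and complement-binding plasma protein vitronectin, was at 13.2, 13.2, 16.6 and 17.4 RPKM in the triple null and at 3009, 3512, 3211 and 2805 RPKM in Cre alfp. The groups were 234-fold apart without overlap (log2 difference -7.78 ± 0.12, limma adjusted p = 2.89e-09), and the difference of FoxA3 null from lox was -0.95. The authors' deposited table gives -7.48 for Vtn. Ttr, the thyroid hormone and retinol carrier transthyretin, was at 102, 70.9, 106 and 97 RPKM against 7079.6, 8786, 7886 and 7427 RPKM, a 93.2-fold lower level. Pemt makes phosphatidylcholine by methylation in the liver, and was at 6.99, 7.58, 5.77 and 10.3 RPKM against 511, 606, 460.3 and 507 RPKM (76.2-fold lower). The choice of genes required that the groups did not overlap, and in these 3 the lowest Cre alfp library lay far above the highest triple null library. The other 6 reported of the lowest protein genes called in the excess included the carboxylesterase gene Ces1c (-5.94) and the glucuronosyltransferase gene Ugt2b1 (-5.44). They also included the cytochrome P450 genes Cyp2c50 (-6.11, against -6.09 for Pemt) and Cyp2c54 (-5.70) and the complement component gene C8b (-5.01). Csrp3 (-5.32), a LIM protein gene best known from striated muscle, was the remaining one. Csrp3 fell to 0.70, 0.708, 0.807 and 0.721 RPKM from 63.5, 68, 60.6 and 59.9 RPKM, a level that in Cre alfp was itself above the 20 to 27.6 RPKM of lox. Cyp2c50 and Cyp2c54 share long near-identical stretches with other Cyp2c genes, as Ces1c and Ugt2b1 do with their neighbours, so their reads may be split between copies and single values are uncertain.

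The promoters shown are some of those of strongly changed genes whose windows held letters of a forkhead or HNF4 motif. They were chosen after the matches were seen. Other windows with a match are not shown, such as those of Ambp and Apoa1 (forkhead). The same holds for window 2 of Csrp3, with HNF4 letters 77 bases before its start. Windows without a match, such as those of Cyp2c50, Pemt and Sult1e1, are not shown either. All windows come from RefSeq (build GRCm38.p6) and run from 250 bases before to 50 bases after the start.
Capitals mark the forkhead letters TGTTTAC, their variants with other inner letters (TATTTAC and also the form TGTTTGC), or the letters of the HNF4 motif CAAAGTC, read on either strand, with overlapping matches allowed.
The reads were processed on another build, mm9, so no position of the files was joined to these windows. The promoters of Vtn (chr11:78498870-78499169, plus strand), C8b (chr4:104766067-104766366, plus strand), Ces1c (chr8:93131234-93131533, minus strand), Ugt2b1 (chr5:86926454-86926753, minus strand) and, from the genes higher in the triple null, Ugt2b37 (chr5:87254739-87255038, minus strand) read, 5′ to 3′ along each gene:
Vtn: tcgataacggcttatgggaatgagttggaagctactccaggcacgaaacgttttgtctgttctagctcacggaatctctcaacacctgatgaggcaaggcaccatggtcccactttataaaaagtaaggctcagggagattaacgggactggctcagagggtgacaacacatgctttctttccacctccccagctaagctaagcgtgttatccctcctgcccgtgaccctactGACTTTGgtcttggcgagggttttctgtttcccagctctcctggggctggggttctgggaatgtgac
C8b: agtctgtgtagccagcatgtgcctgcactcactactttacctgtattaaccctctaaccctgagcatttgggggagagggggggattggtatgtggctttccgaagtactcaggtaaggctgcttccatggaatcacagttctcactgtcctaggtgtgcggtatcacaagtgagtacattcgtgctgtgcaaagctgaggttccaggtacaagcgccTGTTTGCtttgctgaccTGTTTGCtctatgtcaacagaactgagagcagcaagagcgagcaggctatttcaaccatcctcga
Ces1c: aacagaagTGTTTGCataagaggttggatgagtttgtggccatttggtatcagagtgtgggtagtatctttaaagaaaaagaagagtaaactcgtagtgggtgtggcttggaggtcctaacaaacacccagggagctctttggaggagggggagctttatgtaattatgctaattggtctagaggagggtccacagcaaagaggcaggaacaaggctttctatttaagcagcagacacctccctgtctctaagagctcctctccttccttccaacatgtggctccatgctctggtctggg
Ugt2b1: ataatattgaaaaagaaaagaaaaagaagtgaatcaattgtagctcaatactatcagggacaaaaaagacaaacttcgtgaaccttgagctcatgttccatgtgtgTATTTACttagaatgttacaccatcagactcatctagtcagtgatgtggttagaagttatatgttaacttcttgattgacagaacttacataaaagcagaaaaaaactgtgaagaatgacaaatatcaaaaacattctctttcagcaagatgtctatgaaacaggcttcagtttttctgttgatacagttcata
Ugt2b37: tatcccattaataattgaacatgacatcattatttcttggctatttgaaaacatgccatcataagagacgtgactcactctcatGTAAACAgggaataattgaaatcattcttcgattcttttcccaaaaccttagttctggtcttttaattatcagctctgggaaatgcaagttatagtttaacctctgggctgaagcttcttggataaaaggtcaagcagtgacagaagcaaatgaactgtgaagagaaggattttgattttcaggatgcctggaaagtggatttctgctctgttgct
Vtn held HNF4 letters 17 bases before its start, on the other strand, and no forkhead letters. C8b held TGTTTGC at 32 and at 15 bases before its start, Ces1c held it at 242 bases, Ugt2b1 held TATTTAC at 144 bases and Ugt2b37 held TGTTTAC at 166 bases, on the other strand.
Of the 9 lowest genes reported, 7 had a window and 3 of these held forkhead letters, while of the 10 highest 6 had a window and 1 held them. HNF4 letters were held by 2 of these 7 lowest genes and by 0 of the 6 highest.
Among all 32851 windows, 11.2 percent held any of the forkhead letters (3.65 percent TGTTTAC, 3.04 percent TATTTAC, 5.07 percent TGTTTGC) and 4.44 percent the HNF4 letters.
A match describes letters only and was not tied to binding.

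Among genes called in the excess, those highest in the triple null were led by 9030619P08Rik, a transcribed pseudogene of chromosome 15, at 321, 376, 389 and 379 RPKM against 3.92, 2.02, 1.89 and 2.52 RPKM. Its level was 125-fold higher (log2 difference 6.56 ± 0.17, limma adjusted p = 3.34e-08), while FoxA3 null differed from lox by -0.74. The GPI-anchored antigen gene Ly6d, also of chromosome 15, was at 22.6, 102, 11 and 31.8 RPKM against 0.701, 0.51, 1.69 and 1.98 RPKM, with the highest level in triple null replicate 2. Sult1e1, the sulfotransferase that inactivates estrogen, rose to 1411, 1007, 1289 and 786 RPKM from 28.2, 18.6, 6.51 and 12.1 RPKM and had the largest higher difference among protein genes called in the excess (5.99 ± 0.40). It followed a stepwise order over groups, at 0.102 to 0.163 RPKM in lox, 2.46 to 6.37 RPKM in FoxA3 null, then Cre alfp, then triple null, with no overlap between neighbours in this order. Spink3, a trypsin inhibitor, was at 83.4, 188, 117 and 102 RPKM against 0.878, 1.26, 3.6 and 0.718 RPKM (66.9-fold higher). Anxa2, a calcium-dependent membrane-binding annexin, was at 31.1, 59.2, 51.1 and 67.3 RPKM against 2.12, 2.23, 3.76 and 1.32 RPKM. These genes were among those chosen for having no overlap between the groups. Gas6, a ligand of the Tyro3, Axl and Mer receptors, was at 60.4, 52, 76.4 and 41.8 RPKM against 3.25, 2.29, 4.3 and 6.64 RPKM. Cyp17a1, a steroid hydroxylase, was at 133, 82.3, 146 and 110.4 RPKM against 14.9, 13.3, 4.0 and 5.21 RPKM. The remaining genes among the 10 highest were the iron-siderophore binder Lcn2 (3.64), the acute phase apolipoprotein Saa1 (3.91), Ugt2b37 (4.15) and Cyp4a31 (3.52), of which the latter 3 belong to families with near-identical copies and are uncertain to that extent.

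**Figure D3:**
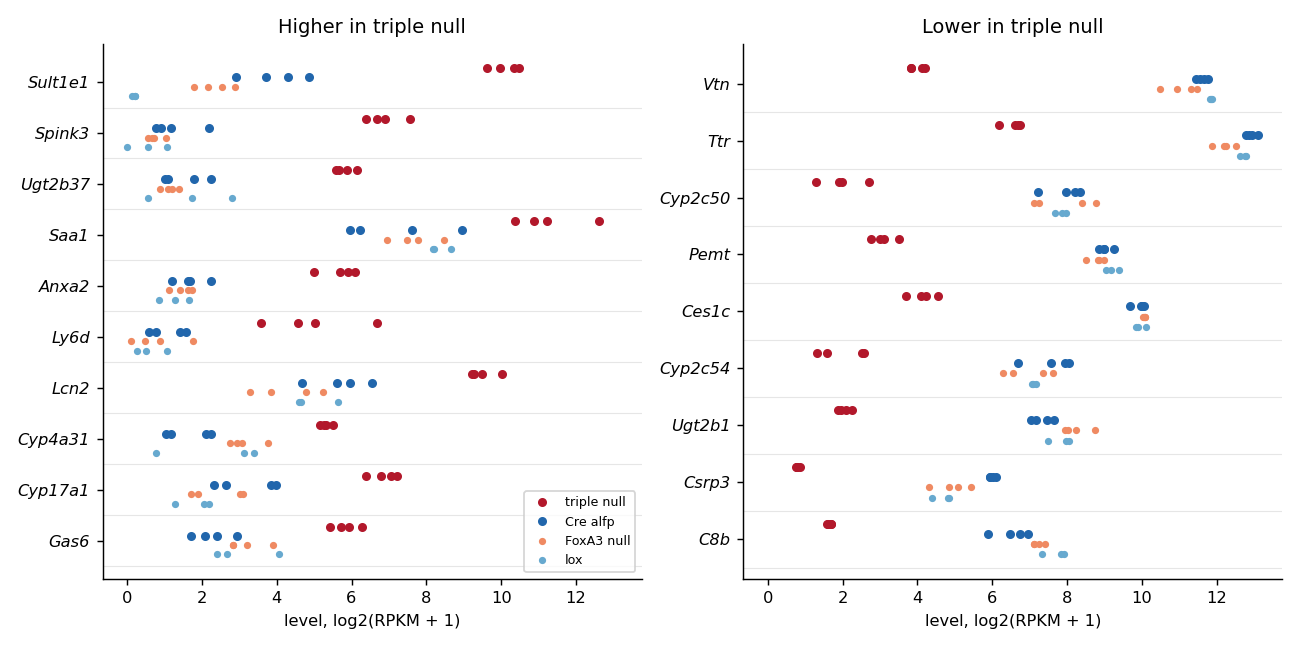
Level as log2(RPKM + 1) of the 10 protein genes with the largest higher and the 9 reported with the largest lower difference among those called in the excess, 1 point per library, large points for triple null and Cre alfp and small points for FoxA3 null and lox. Genes were chosen to have no overlap between triple null and Cre alfp libraries, and the distance varies, with Vtn at 13.2 to 17.4 RPKM against 2805 to 3512 RPKM.

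Plasma protein genes were often lower. In 5 lists of plasma proteins combined, 41 of 99 genes were lower (41.4 percent, background 6.28 percent) and 5 were higher (background 3.79 percent), with a median log2 difference of -0.93 against 0.0018 for all genes. Leaving out any 1 library gave 39 to 45 lower genes. The lists were chosen with earlier results of these data known and are described by counts alone. Among plasma transport proteins, 9 of 18 were lower and 1 was higher (median -1.07). After Vtn and Ttr, the lowest was Ambp, the precursor of alpha-1-microglobulin and bikunin, at 123 ± 32.6 RPKM (SD, n = 4) against 1820.2 ± 166 RPKM (-4.09). Serpina7, the thyroxine-binding globulin whose promoter drove Cre in the vector, was the member called higher, at 31.6, 99.6, 58 and 40.4 RPKM against 3.26, 2.57, 3.93 and 15.2 RPKM (3.02). Cre alfp replicate 4 was the highest of its group in Serpina7 and still lay under every triple null library. Albumin was not called, with a log2 difference of -0.94.

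Apolipoprotein genes moved in both directions, with 6 of 20 lower (background 6.28 percent) and 2 higher (background 3.79 percent). Apoa1, the main protein of high-density lipoprotein, was at 222, 176, 187 and 171 RPKM against 3019, 5012, 6103 and 6159 RPKM, 29.9-fold lower (-4.86 ± 0.23, limma adjusted p = 1.54e-06). Apoa5, which lowers plasma triglyceride, differed by -3.93 and Apof by -3.82. Apoc2, the activator of lipoprotein lipase, was instead at 6423, 6958, 5352 and 5900.4 RPKM against 1094, 1173, 1059.6 and 743 RPKM (2.44). Apoa4 was at 677, 508, 735 and 508 RPKM against 114, 95.9, 141 and 109 RPKM (2.21), and FoxA3 null also exceeded lox in it, by 1.89. Apoa1 and Apoa4 lie in the same gene cluster on chromosome 9 together with Apoa5, and thus differed in opposite directions. Apob, the scaffold of very low density lipoprotein, was not called (-0.16).

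Of 22 coagulation factors and inhibitors 9 were lower (background 6.28 percent) and none was higher (background 3.79 percent), with a median of -0.92. Serpina10, the inhibitor of factor Xa that works with protein Z, was at 1.85, 1.99, 2.59 and 1.69 RPKM against 76.4, 84.8, 75.8 and 81.1 RPKM (44.3-fold lower). F11, the zymogen of factor XIa, differed by -3.07, heparin cofactor Serpind1 by -2.69 and plasminogen (Plg) by -2.27. Of 22 complement components 9 were lower and 1 was higher (median -0.93). C8b, a chain of the membrane attack complex, was at 2.24, 2.22, 1.98 and 2.06 RPKM against 58, 123, 105 and 87.6 RPKM. C1s (-3.94), C4bp (-3.58) and the mannose-binding lectin gene Mbl2 (-2.49) followed, and C3, the central component, was the member called higher (1.02). FoxA3 null was also lower than lox in 4 of the 22 complement genes (background 4.71 percent), among them C1s at -1.08. Of 17 protease inhibitors 8 were lower and Spink3 was higher (median -0.98). Itih2, a heavy chain that bikunin is joined to, was at 14.2, 13.9, 18.9 and 17.1 RPKM against 281, 278, 272 and 275 RPKM. Mug2 (-4.62) and Serpina3n (-3.24) were also lower, both from families of near-identical genes.

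Acute phase genes ran the other way, with 8 of 20 higher (background 3.79 percent) and 3 lower (background 6.28 percent, median 0.84). In the excess 9 were called higher (background 3.18 percent). The excess also counts the difference of FoxA3 null from lox, whose median over the list was -0.47. Summed levels were 12608 to 23805 RPKM in the triple null and 9742 to 11889 RPKM in Cre alfp. They were 4360 to 9099 RPKM in FoxA3 null and 11444 to 16866 RPKM in lox, so triple null and lox overlapped. Lcn2 was at 619, 713, 1034 and 601 RPKM against 92.8, 24.5, 47.9 and 61.1 RPKM. Saa1 was at 1326, 1870.2, 6248 and 2391 RPKM against 491, 73.9, 194 and 61.8 RPKM, and Saa2 at 288, 422, 2325 and 572 RPKM against 314, 31.4, 86.7 and 30.7 RPKM. Triple null replicate 3 was the highest library in both Saa genes, and the Saa2 groups overlapped at Cre alfp replicate 1. The Saa2 difference of 2.95 was not called without Cre alfp replicate 2, and its reads may be shared with Saa1. Steap4, a metalloreductase, differed by 2.2. The 3 lower genes were haptoglobin (Hp, -2.05), Fgl1 (-1.93) and Socs3 (-1.53), and none of these was called in the excess. The 2 neutrophil markers tested, S100a8 and S100a9, were also higher, but not with their peak in the library where the Saa genes were highest. S100a8 was at 3.93, 91.3, 19.5 and 14.9 RPKM against 0.509, 0.40, 1.33 and 2.67 RPKM and S100a9 at 5.03, 17.3, 3.53 and 9.02 RPKM against 1.24, 0.729, 1.86 and 0.708 RPKM, both highest in triple null replicate 2. None of the other 11 neutrophil and monocyte markers measured reached the level for testing, and the defining Ly6g was at 0 in all 8 libraries. Their part in the acute phase values was not tested.

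**Figure D4:**
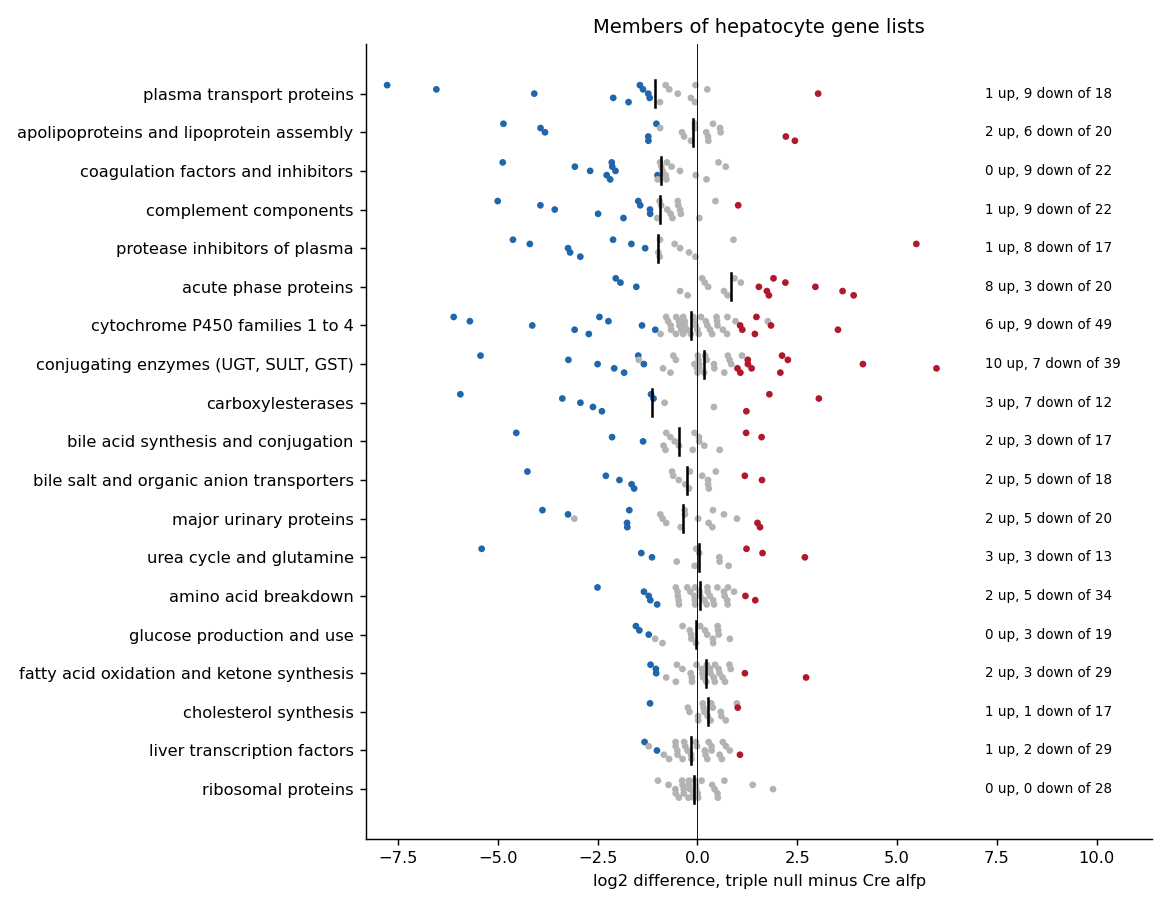
Log2 difference of triple null from Cre alfp for the members of 19 gene lists, 1 point per tested gene, red if called higher, blue if called lower and grey if not called, with the list median as a black bar and the counts at the right. The plasma protein lists and the carboxylesterases lie mostly to the left, the acute phase list mostly to the right, and none of the 28 ribosomal protein genes was called.

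Bile acid genes changed selectively. Of 17 in synthesis and conjugation, 3 were lower (background 6.28 percent) and 2 higher (background 3.79 percent), with a median of -0.46. Cyp8b1, the sterol 12-alpha-hydroxylase that sets the share of cholic acid, was at 0.313, 0.246, 0.276 and 0.548 RPKM against 20.3, 31.4, 63.1 and 15.2 RPKM (105-fold lower). Cyp7b1, which acts in the alternative pathway, was at 134, 136, 138 and 142 RPKM against 16.4, 80.5, 57.7 and 31.1 RPKM (1.61 ± 0.41, limma adjusted p = 0.0142). The Cyp7b1 level of the triple null was close to the 106 to 176 RPKM of FoxA3 null, and Cre alfp was the lower group. Akr1c6 differed by -2.14, Cyp46a1, known from cholesterol turnover in the brain, by -1.36 (not called with all 15 libraries in 1 fit), and the bile acid reductase Akr1d1 by 1.22. Of 18 bile salt and organic anion transporters 5 were lower and 2 higher. Slco1a1, a sodium-independent uptake carrier, was at 1.14, 1.1, 1.66 and 1.75 RPKM against 62.5, 99.2, 82.3 and 4.79 RPKM, with Cre alfp replicate 4 well under the other 3 of its group. Slc22a7 (-2.30), the prostaglandin carrier Slco2a1 (-1.95) and the basolateral exporter Abcc3 (-1.65) were also lower, and Slco1b2 (1.19) and Ostb (1.62) higher.

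Drug-metabolising families split by member. Of 49 cytochrome P450 genes of families 1 to 4, 9 were lower and 6 higher (30.6 percent called, background 10.1 percent). In the excess 10 of this list were lower (background 3.76 percent) and 1 was higher (background 3.18 percent). Cyp2c50 was at 2.97, 1.45, 5.47 and 2.77 RPKM against 294, 249, 148 and 325 RPKM and Cyp2c54 at 4.94, 1.47, 2.0 and 4.78 RPKM against 263, 188, 102 and 247 RPKM. Cyp4a31, of the fatty acid omega-hydroxylases, was at 34.4, 37.2, 39 and 44.4 RPKM against 3.78, 1.25, 1.07 and 3.33 RPKM. Of 39 conjugating enzymes 7 were lower and 10 higher. Ugt2b1 was at 2.92, 2.66, 3.25 and 3.75 RPKM against 130.1, 202, 144 and 174 RPKM, while Ugt2b37, of the same family and chromosome 5 as Ugt2b1, was at 70, 57.9, 50.1 and 46.7 RPKM against 1.01, 3.76, 2.43 and 1.16 RPKM. The sulfotransferase gene 2810007J24Rik was lower (-3.23) and Sult1e1 higher, so opposite directions occurred within both transferase families. Carboxylesterases were called in 10 of 12 genes, 7 lower and 3 higher (median -1.13). All 7 lower genes belonged to the Ces1 and Ces3 groups and the 3 higher ones to the Ces2 group, a split described after the values were seen. In FoxA3 null against lox 2 carboxylesterases were higher and 1 was lower. In the excess 7 were lower and none was higher, so the higher side of the split was not called there. Ces1c was at 17.8, 12, 22.6 and 16.2 RPKM against 1058, 1000.4, 826 and 1019 RPKM, Ces1b differed by -3.39 and Ces1g by -2.93. Ces2c was at 88.2, 66.4, 153 and 89 RPKM against 9.0, 4.91, 14.7 and 11.5 RPKM (3.04), and FoxA3 null exceeded lox by 1.94. Of 20 major urinary protein genes, whose near-identical copies share reads, 5 were lower and 2 higher, and 11 were called in all without Cre alfp replicate 4. Mup3 was at 461, 547, 432 and 454 RPKM against 5499.9, 8162, 5690.4 and 5789.6 RPKM, and Mup20 (-3.24) at 15.6, 33.3, 15.9 and 21.6 RPKM against 79.3, 130.3, 116 and 897 RPKM, where Cre alfp replicate 4 was far above its group. Mup5 (-1.77) and Mup4 (-1.76) were also low in FoxA3 null relative to lox (-1.73 and -1.13).

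Nitrogen and amino acid genes moved in both directions. In the list of 13 urea cycle and glutamine genes 3 were lower and 3 higher (background 6.28 percent lower and 3.79 percent higher). Cps1, which makes carbamoyl phosphate in the first step of the cycle, was at 82.3, 87.5, 143 and 47.6 RPKM against 206, 229.9, 204 and 163 RPKM (-1.41). The ammonium transporter gene Rhbg was at 17.6, 18.2, 43.7 and 17.8 RPKM against 2.29, 1.54, 2.15 and 3.44 RPKM (2.69), with triple null replicate 3 above its group. Oat, the ornithine aminotransferase, was at 1625, 2211, 3194 and 2954 RPKM against 739.8, 574, 468 and 1154 RPKM (1.63), and glutamine synthetase (Glul) differed by 1.23. Of 34 genes of amino acid breakdown 5 were lower and 2 higher (same background). Ido2, which opens the tryptophan ring, differed by -2.50, the histidine genes Hal and Amdhd1 by -1.34 and -1.22, and betaine-homocysteine methyltransferase (Bhmt) by 1.45. Hal was lowest of its group in Cre alfp replicate 4.

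Lipid and glucose genes had called shares of 15 percent in fatty acid and triglyceride synthesis, 17.2 percent in fatty acid oxidation, 11.8 percent in cholesterol synthesis and 15.8 percent in glucose production and use (background 10.1 percent). In fatty acid and triglyceride synthesis 1 of 20 was lower, the elongase Elovl2 (-2.09), and 2 were higher, the NADPH-producing enzymes G6pdx (2.72) and Me1 (1.12). G6pdx was at 12.9, 11.2, 15.3 and 19.2 RPKM against 1.08, 0.953, 1.95 and 0.755 RPKM. The Me1 call was lost without triple null replicate 3 or Cre alfp replicate 2, and 5 members of this list were called without Cre alfp replicate 4. Of 29 fatty acid oxidation and ketone genes 3 were lower and 2 higher. Cd36, a fatty acid uptake receptor, was at 28.4, 26.6, 49 and 26.7 RPKM against 4.2, 1.39, 3.87 and 5.53 RPKM (2.72), Vnn1 differed by 1.19, and the fatty acid binding protein gene Fabp1 by -1.18, a call lost under quantile normalization. Acot1 (-1.04) lost its call without triple null replicate 1 or Cre alfp replicate 3. Of 17 cholesterol synthesis genes 1 was higher and 1 lower, the lower being Sc5d (-1.19), and 1 in all was called without triple null replicate 1, 2 or 3 or without Cre alfp replicate 2 or 3. In glucose production and use 3 of 19 were lower. These were fructose-bisphosphatase Fbp1 (-1.46), glycogen synthase Gys2 (-1.22) and glucose-6-phosphatase G6pc (-1.54), whose libraries overlapped. Without Cre alfp replicate 4 only Fbp1, 1 member of that list, was called, and G6pc also lost its call without triple null replicate 1, 2 or 3 or Cre alfp replicate 2 or 3. None of 14 iron handling genes was called by limma, with 6 at an unadjusted p under 0.05, and the largest difference, 2.29 for Ftl1, did not pass (limma adjusted p = 0.203). The iron count became 1 without triple null replicate 4 or Cre alfp replicate 1 or 3.

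Genes that differ between male and female livers changed within both lists, although every library carried Y-linked transcripts. Of 18 male-biased genes 6 were lower and 4 higher, and of 15 female-biased genes 3 were lower and 4 higher (background 6.28 percent lower and 3.79 percent higher). The higher female-biased genes included Sult1e1 and Cyp17a1, and the lower ones Cyp2b9 and Cyp2b13. Cyp2b9 was at 0.000865, 0.0214, 0.000997 and 3.89 RPKM against 56.3, 8.23, 17 and 38.1 RPKM, and Cyp2b13 at 0.024, 0.0439, 0.0455 and 0.253 RPKM against 15.3, 2.83, 5.66 and 12.7 RPKM. In lox Cyp2b13 was at 0.00237 to 0.246 RPKM, so Cre alfp was the group that stood out. Selenbp2, a male-biased gene, was at 0.224, 0.111, 0.615 and 0.216 RPKM against 2.16, 25.6, 13.5 and 5.25 RPKM, while lox had 484, 617 and 160.1 RPKM. The order lox, then FoxA3 null and Cre alfp together, then triple null was thus seen for Selenbp2, with FoxA3 null at 10.4, 9.49, 20.7 and 9.83 RPKM. In the growth hormone and IGF list 2 of 13 were lower, Igfbp2 at 99.4, 38.5, 57.6 and 86.4 RPKM against 389.5, 391, 346 and 539.6 RPKM (-2.78) and Socs2 (-1.89), whose libraries overlapped and whose call was lost without Cre alfp replicate 2, with all 15 libraries in 1 fit and without the filter on low values. None of the 4 sex chromosome genes tested was called, with 3 at an unadjusted p under 0.05, and the largest difference was -0.78 for Uty (limma adjusted p = 0.00346).

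Of 29 transcription factors of the liver 2 were lower and 1 was higher (10.3 percent called, background 10.1 percent). By direction the background of this and the next lists was 6.28 percent lower and 3.79 percent higher. Mlxipl, the carbohydrate-response factor ChREBP, was at 134, 116, 81.7 and 97 RPKM against 223, 237, 239 and 245 RPKM (-1.33). The xenobiotic receptor gene Nr1i3 (-1.02) lost its call without triple null replicate 3 or 4 or Cre alfp replicate 1 or 4, and Tbx3 (1.06) without triple null replicate 3 or 4 or Cre alfp replicate 2, and 1 factor was called without triple null replicate 3. Of 21 replication and mitosis genes 2 were higher, the cell cycle inhibitor Cdkn1a at 36.2, 59.8, 32.8 and 28.3 RPKM against 0.974, 4.88, 12.4 and 0.398 RPKM (3.19) and the replication clamp gene Pcna (1.20). Of 5 replication-dependent histone genes tested, Hist1h2bc (1.29) and Hist2h3c1 (1.63) were higher. In the list of 17 genes of endoplasmic reticulum stress Dnajb9 (1.36) and Creld2 (1.27) were higher and Chac1 (-1.34) and Vldlr (-1.20) lower. Vldlr lost its call without Cre alfp replicate 1. In FoxA3 null against lox 6 members of that list were lower (background 4.71 percent) and 1 was higher (background 2.46 percent), with a median of -0.58. In the excess 1 was lower (background 3.76 percent) and 6 were higher (background 3.18 percent), among them Creld2 at 3.57, more than its main difference. Junction and adhesion genes had 3 of 21 lower, Cdh1 (-1.78), Cgn (-1.35) and Ocln (-1.07), and Krt8, a keratin of hepatocytes, higher at 204, 325, 259 and 276 RPKM against 79.2, 109, 112 and 107 RPKM. Ocln lost its call without triple null replicate 1 or 4. Of 16 interferon-stimulated genes Gbp2 was higher (2.02) and Mx2 (-1.88), Stat2 (-1.48) and Irf7 (-1.16) lower. Jun (-1.08) was the 1 of 19 immediate early genes called, and lost its call without triple null replicate 3 or without Cre alfp replicate 3 or 4, and that count ranged from 0 to 2 over the libraries left out. Peg3, an imprinted gene, was the 1 of 4 tested fetal liver genes called (-2.42), and 11 of the 15 fetal genes listed stayed under 1 RPKM in all 8 libraries. By limma none of 19 clock genes, 28 ribosomal protein genes or 7 mitochondrially encoded genes was called. An unadjusted p under 0.05 was reached by 4, 13 and 3 of them. Of all 10932 genes, 4431 had a limma adjusted p under 0.05 when no minimum difference was required. Without Cre alfp replicate 4, 5 clock genes were called. Leaving out triple null replicate 1, 2 or 4 or Cre alfp replicate 1 or 3 gave 1 called ribosomal protein gene.

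Some genes were called the same way between FoxA3 null and lox, where Foxa1 and Foxa2 were intact, and not in the excess. The largest were Gm10736, which had no match in the RefSeq gene table, at 109.7, 168, 272 and 198 RPKM against 0, 0, 0.737 and 0 RPKM, and Rpl34-ps1, a ribosomal protein copy, at 70.5, 96.5, 112 and 97.2 RPKM against 0, 0.121, 0.0924 and 0 RPKM. FoxA3 null differed from lox by 6.88 and 6.60 in these genes, against 7.19 and 6.39 in the main comparison. Gm13611 (5.22) behaved likewise (5.43), and the ribosomal protein gene Rpl37a was lower by 10.3-fold, at 3.92, 3.43, 4.28 and 4.32 RPKM against 36.3, 41.4, 35.2 and 32.9 RPKM (-3.06 and -3.14). Reads of such copies can be assigned to either locus, so these values are uncertain. The small nucleolar RNA genes Snord13 (-7.12) and Snora31 (-5.51) and the pseudogene Gm15148 (-6.13) were the lowest genes without a protein. Snord13 was at 0, 0, 134 and 0 RPKM in the triple null, carried by replicate 3, and at 0 in all FoxA3 null libraries. Among protein genes the shared set was led on the higher side, after Rpl34-ps1, by Ces2c, the eicosanoid-metabolising reductase Ptgr1 (2.80 and 1.63), Apoa4 and the SUMO-activating enzyme subunit Sae1 (2.15 and 2.03). On the lower side it was led by Foxa3 itself, Rpl37a, Selenbp2, 1810011O10Rik (-2.94 and -1.81) and Gm6803 (-2.51 and -2.64). Sae1 was at 28.8, 40.6, 48.9 and 34.6 RPKM against 6.31, 6.95, 7.26 and 6.75 RPKM, and at 43.2, 37.3, 27.8 and 32.4 RPKM in FoxA3 null against 6.93, 6.8 and 7.08 RPKM in lox, so its level followed FoxA3 status in all 15 libraries.

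Among markers of other liver cells, those of sinusoidal endothelium were mostly lower in the triple null libraries and the neutrophil genes S100a8 and S100a9 were higher (the plot of summed markers). In these bulk samples fewer cells of a type and less RNA per cell cannot be told apart. Of 13 tested sinusoidal endothelium markers 10 were lower (median -1.21), against 6.28 percent of all genes tested. Summed levels of the list were 14.4 to 28.8 RPKM in the triple null and 31 to 114 RPKM in Cre alfp. FoxA3 null had 43.1 to 68.5 RPKM and lox 53.7 to 88.9 RPKM. The largest differences were in Egfl7 (-1.83), the scavenger receptor Stab1 (-1.66, not called without the filter on low values), Clec4g (-1.56) and Eng (-1.53), and the count fell to 6 without Cre alfp replicate 1, 2 or 3. Cre alfp replicate 4 was the lowest of its group and nearest to the triple null. Stellate and fibroblast markers summed to 15.1 to 59.4 RPKM against 32.1 to 149 RPKM, with Colec11 the 1 of 5 called (-1.25); that call was lost without triple null replicate 3 or 4 or Cre alfp replicate 1, 2 or 3, and 5 were called without Cre alfp replicate 4. Kupffer cell and macrophage markers summed to 34.6 to 73.1 RPKM against 37 to 100.2 RPKM. Clec4f was lower (-1.32) and Mpeg1 higher (1.07) of 10, and both calls were lost in some settings: Clec4f was not called without triple null replicate 3 or 4 or Cre alfp replicate 1, 2 or 3, with a replicate block or without the filter on low values, Mpeg1 not without triple null replicate 3 or Cre alfp replicate 2, and 7 markers were called without Cre alfp replicate 4. Neutrophil and monocyte markers summed to 10.1 to 113 RPKM in the triple null, highest in replicate 2, and to 1.66 to 4.17 RPKM in Cre alfp. None of 3 tested cholangiocyte markers was called by limma, with 2 at an unadjusted p under 0.05 (1 called without Cre alfp replicate 1), and no lymphocyte marker reached the level for testing. Of 6 erythroid markers Alas2, the heme synthesis enzyme of erythroid cells, was lower at 1.24, 1.31, 0.715 and 0.902 RPKM against 9.21, 24.4, 17.4 and 8.62 RPKM, and Hba-a2, of a family of near-identical globin genes, higher (1.71), with 1 of them called without Cre alfp replicate 4. The part of these other cells in the hepatocyte gene differences was not tested. The 10 hepatocyte defining genes had a median log2 difference of -0.32, with 3 above 0. Of these 10, Ttr and Cps1 were called lower, and 4 were called without triple null replicate 1.

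**Figure D5:**
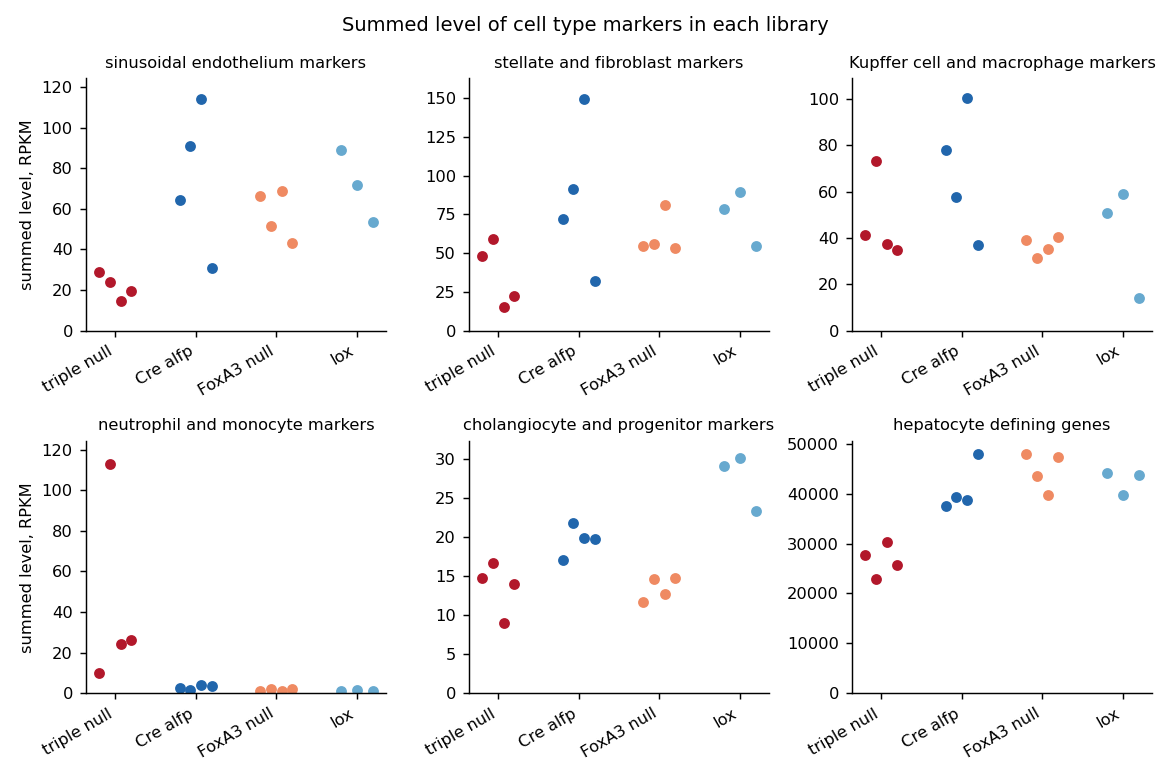
Summed RPKM of the members of 6 cell type marker lists in each hepatocyte library, 1 point per library on linear axes that start at 0. Sinusoidal endothelium markers sum to 14.4 to 28.8 RPKM in the triple null and 31 to 114 RPKM in Cre alfp, and neutrophil and monocyte markers are highest in triple null replicate 2 at 113 RPKM.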

How the data were processed

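RNA was sequenced from hepatocytes, and the files hold RPKM per gene in 1 matrix, normalised by the authors, of which 15 columns matched hepatocyte libraries of the groups used and 15 others were not used. Per the submitters' processing notes Cufflinks 2.2.1, SAMtools and DESeq2 were used with build mm9, with no role or order given there, and the strandedness of counting is not given in the sources used here. The deposited comparison table of the authors holds log2 fold changes and a p-value column. Its header is shifted by 1 column, and its last column was read as unadjusted p and adjusted here by Benjamini-Hochberg. Genes with at least 1 RPKM in 3 of the 8 libraries were kept (10975), and 43 were left out for being at 0 in every library of 1 group (36 triple null, 7 Cre alfp). Levels are printed as deposited RPKM. For differences, libraries were scaled to equal medians, log2(RPKM + 1) was taken, and limma 3.58.1 (R 4.3.3, moderated with a mean trend) was fitted across all 10932 genes, with Benjamini-Hochberg adjustment; calls needed an adjusted p under 0.05 and an absolute log2 difference of at least 1. The added 1 RPKM understates changes of low genes. Folds are ratios of scaled means. A separate fit of all 15 libraries gave FoxA3 null against lox and the excess. Relative depth came from the most frequent ratio of low values between each library and Cre alfp replicate 4, taken to stand for single reads in both. The comparison, its genes and all lists were chosen with earlier results of these data known. Named genes were Foxa1 to Foxa3, Hnf4a, 9030619P08Rik and Vtn; among protein genes of at least 5 RPKM without overlap, the 10 highest and 10 lowest called in the excess and the 5 highest and 5 lowest shared with FoxA3 null against lox; up to 4 called members of each list by size, or the largest difference where none was called; and the 3 highest and 3 lowest called genes without a protein. Hp, Fgl1, Socs3, C3, Akr1d1, Glul, Ostb, Slco1b2, Alb and Apob were added after their values were seen and were not recomputed one by one under the alternatives. Of the genes this rule gave, 133 were kept and the others are not reported here. RefSeq symbols (GRCm38.p6) matched 27904 of 33773 symbols, 20524 with a protein. Coordinates of the windows are of that build. Alternatives were other scalings, pseudocounts, filters, moderation, a replicate block and each library left out. The fit was also tested on simulated data, and no result of that test is given here.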

Additional observations from a re-analysis of the deposited data

Results flagged for a closer look

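Among 242 groups of 4 libraries examined for the named genes (group mean at least 1 RPKM), 15 held a library whose gap to its nearest neighbour exceeded the 95% critical value of Dixon's test; chance gives about 1 in 20 groups. Of these, 7 were Cre alfp replicate 4. It was highest for Ptgr1 (14.2 RPKM against 2.64 to 3.8 in the other 3, gap share 0.899), Serpina7 (0.892), C4bp (0.904), Mup20 (897 against 79.3 to 130.3 RPKM, 0.938), Usp2 (0.911) and Rps2 (0.833), and lowest for Hal (0.865). Triple null replicate 3 accounted for 5, as the highest library for Snord13 (gap share 1), Saa2 (0.861), Cd36 (0.92), Rhbg (0.98) and Serpina3n (0.87). The others were triple null replicate 4 for Snora31 (0.936), Cre alfp replicate 2 for Mup3 (0.891) and Cre alfp replicate 1, the lowest, for Krt8 (0.853).

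For 77 named genes the difference of triple null from Cre alfp departed from that of FoxA3 null from lox in the fit of all 15 libraries (limma adjusted p at most 0.0468). The values are log2 differences of differences. In 28 genes this excess was positive. It was 9030619P08Rik 7.30, Spink3 5.34, Ly6d 3.63, Anxa2 3.72 and Gas6 3.41 for the pseudogene and the leading protein genes. Acute phase genes followed with Saa1 4.75, Lcn2 4.46, Saa2 4.25 and Steap4 2.04, and drug and steroid enzymes with Ugt2b37 4.81, Sult1e1 3.89, Cyp17a1 3.03 and Cyp4a31 2.94. Plasma proteins on this side were Serpina7 2.81 and Apoc2 2.12, and metabolic genes Cd36 3.03, Rhbg 2.78, G6pdx 1.75, Oat 1.69 and Bhmt 1.65. The rest were Creld2 3.57, Hist2h3c1 2.25, Hist1h2bc 1.48, Gbp2 1.68 and Krt8 1.18, and the leukocyte markers S100a8 2.93, S100a9 2.03 and Mpeg1 1.3.

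In 49 genes the excess was negative. Plasma transport and lipoprotein genes had Vtn -6.82, Ttr -5.86, Ambp -3.86, Apoa1 -4.34, Apoa5 -4.01 and Apof -3.72. Coagulation genes had Serpina10 -4.63, Serpind1 -3.23, F11 -2.75 and Plg -2.39, complement genes C8b -4.37, C4bp -4.30, Mbl2 -3.09 and C1s -2.85 and protease inhibitors Mug2 -4.92, Itih2 -4.39 and Serpina3n -3.34. Bile acid and transporter genes had Cyp8b1 -4.10, Akr1c6 -2.73, Slco1a1 -5.32, Slco2a1 -2.03 and Abcc3 -2.03. In drug-metabolising families the values were Cyp2c50 -6.0, Cyp2c54 -5.39, Cyp2b13 -3.03, Cyp2b9 -2.85, Ugt2b1 -5.68, 2810007J24Rik -3.27, Ces1c -5.89, Ces1g -3.18 and Ces1b -2.12. Lipid and glucose genes had Pemt -5.52, Elovl2 -2.33, Acot1 -1.84, Sc5d -1.49, Fabp1 -1.18 and Fbp1 -2.11, and nitrogen and amino acid genes Cps1 -2.09, Ido2 -2.11 and Amdhd1 -1.45. The remaining hepatocyte genes were Mup3 -3.38, Csrp3 -5.41 and Igfbp2 -3.49, Ocln -1.78, Irf7 -1.60 and Vldlr -1.27. Among markers of other cells the values were Alas2 -1.71, Colec11 -1.48 and Egfl7 -1.47.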

How the results depend on the processing

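Of the values of named genes other than the 3 FoxA genes recomputed under an alternative, 2494 kept their direction and side of the threshold, 66 lost the call, 3 gained it and none turned direction. Acot1, Jun, Nr1i3 and Ocln were not called without scaling or with quantile normalization, and Clec4f, Colec11, Foxq1, G6pc, Jun, Saa2, Socs2 and Stab1 not without the filter on low values. The main count of 1101 lay between 1015 and 1513 under other scalings, pseudocounts and filters, except 799 with at least 5 RPKM in 4 libraries and 857 with symbols that have a RefSeq protein, where fewer genes were tested. Dropping the minimum difference gave 4431 genes in the main comparison, 3779 for FoxA3 null against lox, 1720 for the excess and 325 pathway-list members in place of 173. With it dropped Foxa1 (0.82) and Foxa2 (-0.69) passed, as they did at a pseudocount of 0.1 (1.18 and -1.52). With RefSeq protein symbols alone, FoxA3 null against lox gave 502 calls, a setting chosen after seeing the data. Leaving out 1 library gave 987 to 1254 calls in the main comparison, 575 to 1046 for FoxA3 null against lox, 626 to 861 for the excess and 162 to 187 list members. The labels number replicates in both groups, but same-numbered libraries did not deviate together (correlations -0.04, 0.09, -0.08 and -0.06, none highest with its own number); a replicate block gave 1087, 782 and 759 calls and 174 list members. Absolute depth was unknown and triple null libraries were the shallower, so low genes were less precise there.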

Other observations

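Some genes set Cre alfp apart from every other hepatocyte library, and were chosen after their values were seen. Gh, the growth hormone gene of the pituitary, measured 5.29, 6.37, 3.26 and 8.29 RPKM in Cre alfp, against 0 in the other 11 libraries. Sult3a1, a sulfotransferase, measured 4.43, 5.73, 3.35 and 4.45 RPKM in that group and stayed under 0.1 RPKM elsewhere. Cyp2b13 followed the same order, as given above. Reads of the microRNA gene Mir1894 came to 55.1, 53.3, 215 and 554 RPKM in the Cre alfp replicates and to 0 in the rest, with replicate 4 highest.

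Cre alfp replicate 4 differed from the other 3 of its group in several chromosome 1 genes. Ctse was at 32.5, 23.9, 31.7 and 0.0189 RPKM, Ren1 at 2.35, 1.97, 2.79 and 0 RPKM and Gm16332 at 31.3, 29.8, 27.2 and 3.53 RPKM in Cre alfp replicates 1 to 4. Golt1a was at 3.11, 3.27, 2.43 and 8.51 RPKM and Gm4788 at 0.0391, 0.0749, 0.0324 and 73.7 RPKM. In the other groups Ctse reached up to 0.0519 RPKM (FoxA3 null) and Ren1 up to 0.575 RPKM (lox). Gm16332 was at 3.81 to 4.73 RPKM in lox, 2.18 to 3.10 RPKM in FoxA3 null and 0.50 to 0.944 RPKM in the triple null. Cre alfp replicates 1 to 3 were thus the libraries that stood apart in Ctse, Ren1 and Gm16332. Golt1a was at 7.27, 7.97 and 8.26 RPKM in lox, 6.18, 8.47, 8.37 and 7.02 RPKM in FoxA3 null and 9.47, 9.4, 11.6 and 10.9 RPKM in the triple null. For Gm4788 Cre alfp replicate 4 lay with lox (74, 63.5 and 101 RPKM), and the triple null had 14.6, 18.9, 16.6 and 12.5 RPKM. The Y-linked Uty was at 9.05, 8.26, 8.9 and 5.95 RPKM in Cre alfp, with replicate 4 nearest to the triple null (4.83, 4.92, 5.36 and 4.09 RPKM). No test was made of these values.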
